A study of Arabidopsis thaliana with 18 samples.

Results

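The CIPK genes encode protein kinases, and 10 of them, CIPK1, 3, 5, 7, 9, 11, 14, 20, 23 and 25, out of the 33557 genes in the deposited table, are described here. They were found by their locus identifiers, and the set was chosen by the measured levels of CIPK25, which differed widely between the ecotypes in the cold. That difference is therefore given as a description and supports nothing further. All 10 genes reached 1 FPKM (a unit that divides the fragments of a gene by its transcript length and by the size of the library) in at least 1 group, as did 19639 genes in all. The plants were Arabidopsis thaliana of a Swedish (SW) and an Italian (IT) ecotype, sampled as whole aerial parts 4 h after lights on. Warm plants of each ecotype were grown on soil for 18 days at 22 °C with 12 h of light of 100 to 120 µmol per square metre and second. Cold plants of each ecotype are listed with the same 18 days at 22 °C, and with 1 or 2 weeks at 4 °C. The cold weeks had the same day length, at about 35 µmol. The 18 libraries form 6 groups of 3, and the table holds 1 combined FPKM value per gene and group, so the spread between the 3 libraries, the depth behind a value and a test of any difference were not to be had from it.

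A CIPK is a kinase that is switched on by a calcium sensor of the CBL family. A calcium signal loads the CBL protein, which binds a short regulatory domain of the kinase, releases its autoinhibition and takes it to the plasma membrane or the vacuole. There CIPKs phosphorylate channels, pumps and transporters for potassium, nitrate, ammonium, sodium and protons, and several act in responses to abscisic acid (ABA), osmotic stress and cold.

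In these plants CIPK25 was the member with the widest range of levels, below 1 FPKM in warm plants of both ecotypes and the highest of the 10 in cold SW plants. CIPK20, CIPK1 and CIPK14 went the other way and were lower in cold SW plants than in cold IT plants at 2 weeks. CIPK7, CIPK9 and CIPK23 stayed within 2-fold in all 9 comparisons between groups. Throughout, a ratio is the log2 ratio of FPKM + 1, which understates the change of a gene at a low level, and a gene counts as higher or lower when it differs at least 2-fold on that scale.

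CIPK25 (AT5G25110, chr5:8657604-8659352, minus strand, RefSeq annotation of TAIR10.1) has a single coding exon. Its nearest relative in the family by coding sequence was CIPK5 (AT5G10930, chr5:3445029-3447278, minus strand, also 1 coding exon), identical at 79.2% of 1329 aligned bases. The most similar ungapped stretch of 90 coding bases is shown because CIPK25 and CIPK5 moved apart in the cold and a read must tell them apart. It covers coding bases 559 to 648 of CIPK25 and 469 to 558 of CIPK5 in the RefSeq TAIR10.1 reference. Capitals mark the 9 bases that differ, and the longest identical run is 26 bases.
CIPK25: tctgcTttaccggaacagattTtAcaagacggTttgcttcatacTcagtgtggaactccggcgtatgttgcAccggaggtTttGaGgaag
CIPK5: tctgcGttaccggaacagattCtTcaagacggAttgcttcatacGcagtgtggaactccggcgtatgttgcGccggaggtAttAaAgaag
None of the 1720 stretches of 30 bases in the CIPK25 transcript occurred in a transcript of another locus, on either strand, and the same held for CIPK7, CIPK14, CIPK20 and CIPK23. CIPK5 shared 2 of 2221 stretches with CIPK6, and CIPK1 shared 15 of 2941 with CIPK17. CIPK3 shared 9 of 3264 and CIPK9 5 of 1880 with other loci. CIPK11 is the exception, since 1794 of its 1827 stretches, 98.2%, lie in the antisense long noncoding RNA AT2G30362 that overlaps it. Whether the counting used strand is not given in the sources used here, so the CIPK11 level is uncertain. The sequences are those of the reference accession and not of the SW or IT alleles, and the effect of allele differences on mapping was not tested.

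CIPK4 had the largest cold increase of the CIPK genes outside the set. The 300 bases before the annotated start of CIPK25 are shown with those of CIPK4 and of CIPK20, the member with the strongest cold decrease. Each was searched on both strands for CCGAC, the core of the CRT/DRE element bound by CBF factors, for AAAATATCT, the evening element, and for ACGTG, the core of the ABA element. Capitals mark a match, which on the reverse strand reads as the reverse complement GTCGG in CIPK20. The windows, all on the minus strand of TAIR10.1, are chr5:8659353-8659652 for CIPK25, chr5:18588793-18589092 for CIPK20 and chr4:8369313-8369612 for CIPK4.
CIPK25: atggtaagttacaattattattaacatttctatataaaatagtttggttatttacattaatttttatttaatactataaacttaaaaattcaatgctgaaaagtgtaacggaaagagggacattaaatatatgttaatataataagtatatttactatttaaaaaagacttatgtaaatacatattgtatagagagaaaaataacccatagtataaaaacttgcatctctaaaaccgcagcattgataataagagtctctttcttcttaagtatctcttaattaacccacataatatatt
CIPK20: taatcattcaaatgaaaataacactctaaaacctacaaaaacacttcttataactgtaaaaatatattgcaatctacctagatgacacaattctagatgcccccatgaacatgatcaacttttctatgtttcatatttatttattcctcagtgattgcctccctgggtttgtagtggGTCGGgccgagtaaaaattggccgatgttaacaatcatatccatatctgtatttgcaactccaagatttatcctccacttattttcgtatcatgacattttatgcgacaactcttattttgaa
CIPK4: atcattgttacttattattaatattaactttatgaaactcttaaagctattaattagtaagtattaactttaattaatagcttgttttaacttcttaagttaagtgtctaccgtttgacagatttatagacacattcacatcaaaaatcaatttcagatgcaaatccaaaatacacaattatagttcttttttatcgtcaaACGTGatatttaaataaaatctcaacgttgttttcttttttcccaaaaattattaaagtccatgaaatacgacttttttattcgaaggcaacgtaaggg
The CIPK25 window held none of these letters, CIPK20 held the CRT/DRE core at 119 to 123 bases before the start, and CIPK4 held the ABA element core. Of 27443 protein-coding promoters of 300 bases, 13.9% held the CRT/DRE core, 2.79% the evening element and 25.6% the ABA element core. Among the 10 members the counts were 1, 0 and 0. In windows of 1000 bases the CRT/DRE core was in the members CIPK5, CIPK11 and CIPK20, and the evening element in CIPK20. The ABA element core was in 7 members, CIPK25 among them at 831 to 835 bases before the start. CIPK4 held the CRT/DRE core at 988 to 992 bases and a further ABA element core at 635 to 639 bases. CIPK21, also higher in the cold, held the CRT/DRE core at 273 to 277 bases and 2 evening elements farther out. Among the 16 CIPK genes outside the set the counts were 5, 1 and 9 at 300 bases, and 10, 3 and 12 at 1000 bases. The shares of all promoters of 1000 bases were 37.4%, 7.24% and 54.4%. A match is a description of letters, and a missing match says only that these letters are not in the window.

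CIPK25, a kinase linked in Arabidopsis to root growth and to potassium balance under low oxygen, stood at 0.528 FPKM in warm SW plants, 155 FPKM after 1 week and 281 FPKM after 2 weeks of cold. The IT plants had 0.681 FPKM in the warm, 9.41 FPKM at 1 week and 10.2 FPKM at 2 weeks. Both warm groups were below 1 FPKM, both ecotypes were higher in the cold, and the cold SW values lay far above the cold IT values. The quotient of SW over IT was 16.5 at 1 week and 27.6 at 2 weeks, against 0.776 in the warm. On the log2 scale these are 3.90, 4.65 and -0.14. The ratio at 2 weeks was the 16th highest of 19335 genes, that at 1 week ranked 27 of 19336, and that in the warm ranked 13390 of 19325. Within SW plants, cold over warm was 6.67 at 1 week and 7.53 at 2 weeks, which ranked 9 of 19347 and 6 of 19328. The same ratios within IT plants were 2.63 and 2.73, ranks 107 of 19362 and 101 of 19382. The cold increase was thus present in both ecotypes and differed in size, and the difference of the 2-week log2 ratios, 4.79, was the highest of 19223 genes. Because the warm values are low, the pseudocount matters, and with a pseudocount of 0.01 in place of 1 the 2-week SW ratio was 9.03. Whole shoots were sampled, so more cells with the transcript and more transcript per cell cannot be told apart for this or any other member. The cold, the dimmer light and the greater age of the cold plants cannot be told apart either.

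**Figure D1:**
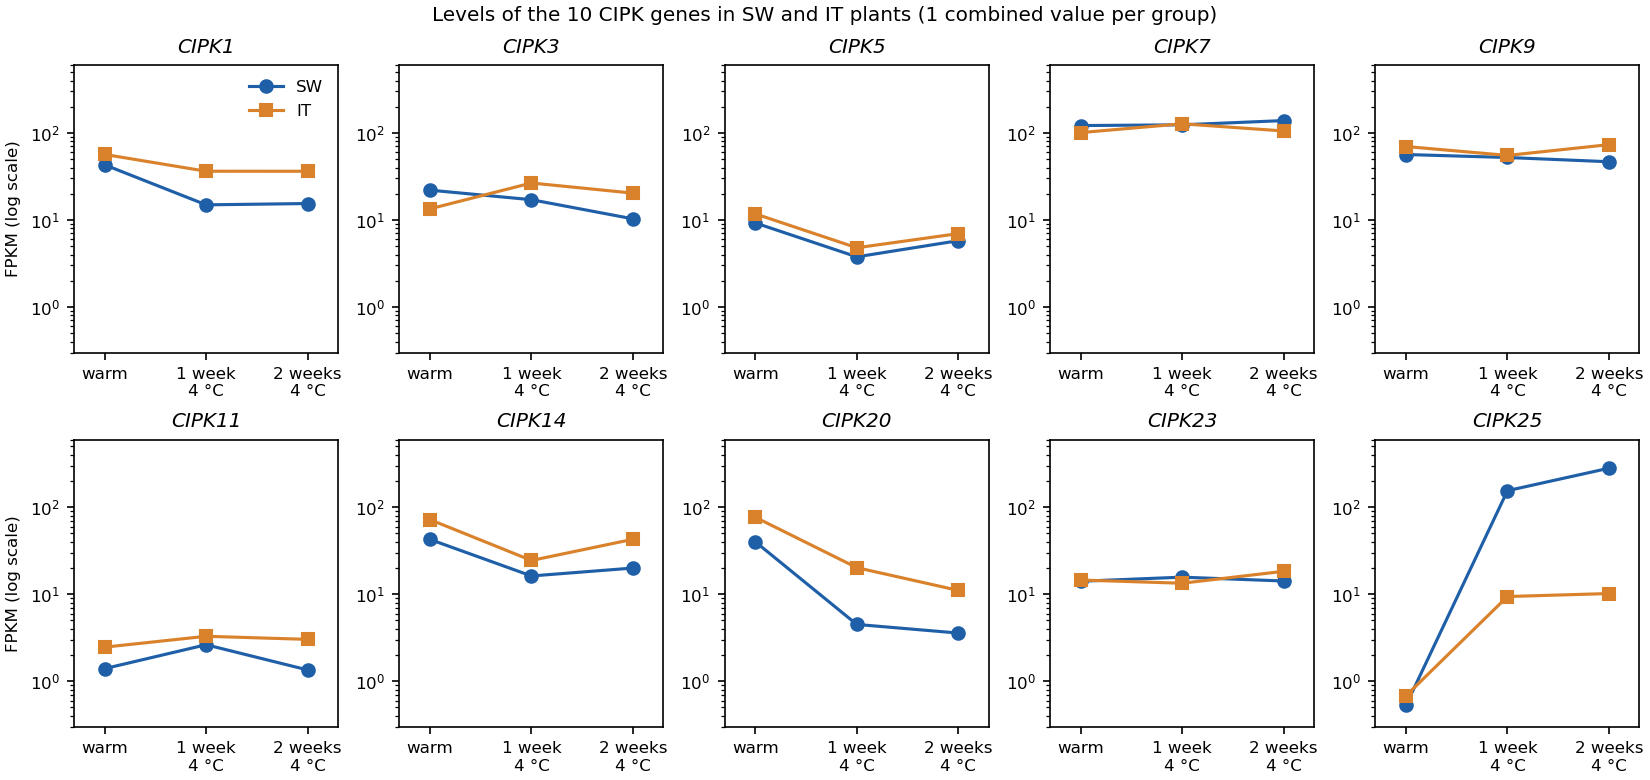
Level of each of the 10 CIPK genes (FPKM, log scale, 1 combined value per group and no error bars) in warm plants and after 1 and 2 weeks at 4 °C, with SW as circles and IT as squares. CIPK25 climbs in both ecotypes and reaches 281 FPKM in SW against 10.2 FPKM in IT plants at 2 weeks, while CIPK20 drops in both.

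The plot of levels by gene shows that CIPK25 and CIPK20 spanned the widest ranges. The highest over the lowest of the 6 values was 532 for CIPK25, 21.4 for CIPK20, 4.44 for CIPK14 and 3.80 for CIPK1. It was 1.37 for CIPK7 and for CIPK23. In warm SW plants the members ran, from high to low, CIPK7, CIPK9, CIPK1, CIPK14, CIPK20, CIPK3, CIPK23, CIPK5, CIPK11 and CIPK25. After 1 and 2 weeks of cold CIPK25 stood first in SW plants, with CIPK7 next and CIPK9 after it. With 1 value per group, whether neighbours in these orders differ was not tested.

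CIPK20 (AT5G45820, chr5:18586870-18588792, minus strand), whose activated form makes Arabidopsis seedlings hypersensitive to ABA, had 40.1, 4.50 and 3.58 FPKM in SW plants in the warm and at 1 and 2 weeks of cold. In IT plants it had 76.7, 20.2 and 11.1 FPKM at the same stages. It was lower in the cold in both ecotypes and lower in SW than in IT at every stage. Cold over warm was -2.90 and -3.17 in SW, against -1.87 and -2.69 in IT, at 1 and 2 weeks. SW over IT was -1.95 at 1 week, -1.40 at 2 weeks and -0.92 in the warm, the last within 2-fold.

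CIPK1 (AT3G17510, chr3:5988924-5993001, minus strand) works with CBL1 in osmotic stress and with CBL9 in ABA responses. Its SW levels were 43.1 FPKM in the warm, 14.9 FPKM at 1 week and 15.5 FPKM at 2 weeks, and its IT levels were 56.7, 36.3 and 36.3 FPKM. The cold SW values were the lowest, and the 2 cold stages were alike in each ecotype. SW over IT was -1.23 at 1 week and -1.18 at 2 weeks, with -0.39 in the warm. Cold over warm was -1.47 and -1.42 in SW, and within 2-fold in IT at -0.63 for both stages.

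CIPK3 (AT2G26980, chr2:11514600-11518734, minus strand), which affects ABA- and cold-responsive gene expression in seedlings, moved in opposite directions. It stood at 22.0, 17.1 and 10.3 FPKM in SW plants in the warm and at 1 and 2 weeks, against 13.4, 26.6 and 20.4 FPKM in IT plants. SW was above IT in the warm and below it at both cold stages. Cold over warm at 2 weeks was -1.03 in SW and 0.57 in IT, and only the SW value was past 2-fold. The difference of the log2 ratios, SW minus IT, was -1.28 at 1 week and -1.59 at 2 weeks.

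CIPK14 (AT5G01820, chr5:313190-315405, minus strand), which binds CBL2, had 42.7, 16.2 and 20.0 FPKM in SW plants and 72.0, 24.4 and 42.8 FPKM in IT plants, in the warm and at 1 and 2 weeks. Both ecotypes were lowest at 1 week, and SW was below IT at each stage. SW over IT passed 2-fold at 2 weeks alone, at -1.06, and did not once the groups were scaled to 12 reference genes, at -0.90. Cold over warm was -1.34 and -1.06 in SW, against -1.52 and -0.74 in IT, at 1 and 2 weeks. CIPK11 (AT2G30360, chr2:12936968-12938834, minus strand), which inhibits the plasma membrane proton pump AHA2, ranged from 1.35 FPKM in SW plants at 2 weeks to 3.29 FPKM in IT plants at 1 week. It had 1.397 and 2.63 FPKM in SW plants in the warm and at 1 week, against 2.47 FPKM in warm and 3.03 FPKM in 2-week IT plants. Its antisense RNA AT2G30362 was listed between 0.512 and 1.49 FPKM. All its ratios were within 2-fold, with SW over IT at 2 weeks at -0.78, and that one passed 2-fold with smaller pseudocounts, at -1.11 with 0.1.

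CIPK5 had 9.25, 3.77 and 5.78 FPKM in SW plants in the warm and at 1 and 2 weeks. In IT plants it had 11.8, 4.80 and 6.97 FPKM. Both ecotypes were lower at 1 week, by -1.10 in SW and -1.14 in IT, and both were within 2-fold of the warm at 2 weeks. SW over IT lay between -0.32 and -0.23 at the 3 stages, so the nearest relative of CIPK25 showed neither its cold increase nor its ecotype difference.

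The remaining 3 members serve mainly in nutrient transport or cold and kept their levels. CIPK7 (AT3G23000, chr3:8172479-8174142, plus strand), which binds CBL1 and is linked to the cold response, had 122, 124 and 139 FPKM in SW and 101, 127 and 105 FPKM in IT plants. CIPK9 (AT1G01140, chr1:64166-67774, minus strand), which acts with CBL2 and CBL3 in potassium balance, had 56.5, 52.3 and 46.7 FPKM in SW and 69.9, 55.2 and 73.4 FPKM in IT plants. CIPK23 (AT1G30270, chr1:10654800-10658924, plus strand), which activates the potassium channel AKT1 and acts on nitrate and ammonium transporters, had 14.1, 15.7 and 14.2 FPKM in SW and 14.6, 13.4 and 18.3 FPKM in IT plants. The largest ratio among these 3 genes was -0.64, for CIPK9 in SW over IT at 2 weeks. The order of the stages is warm, 1 week and 2 weeks in each case.

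**Figure D2:**
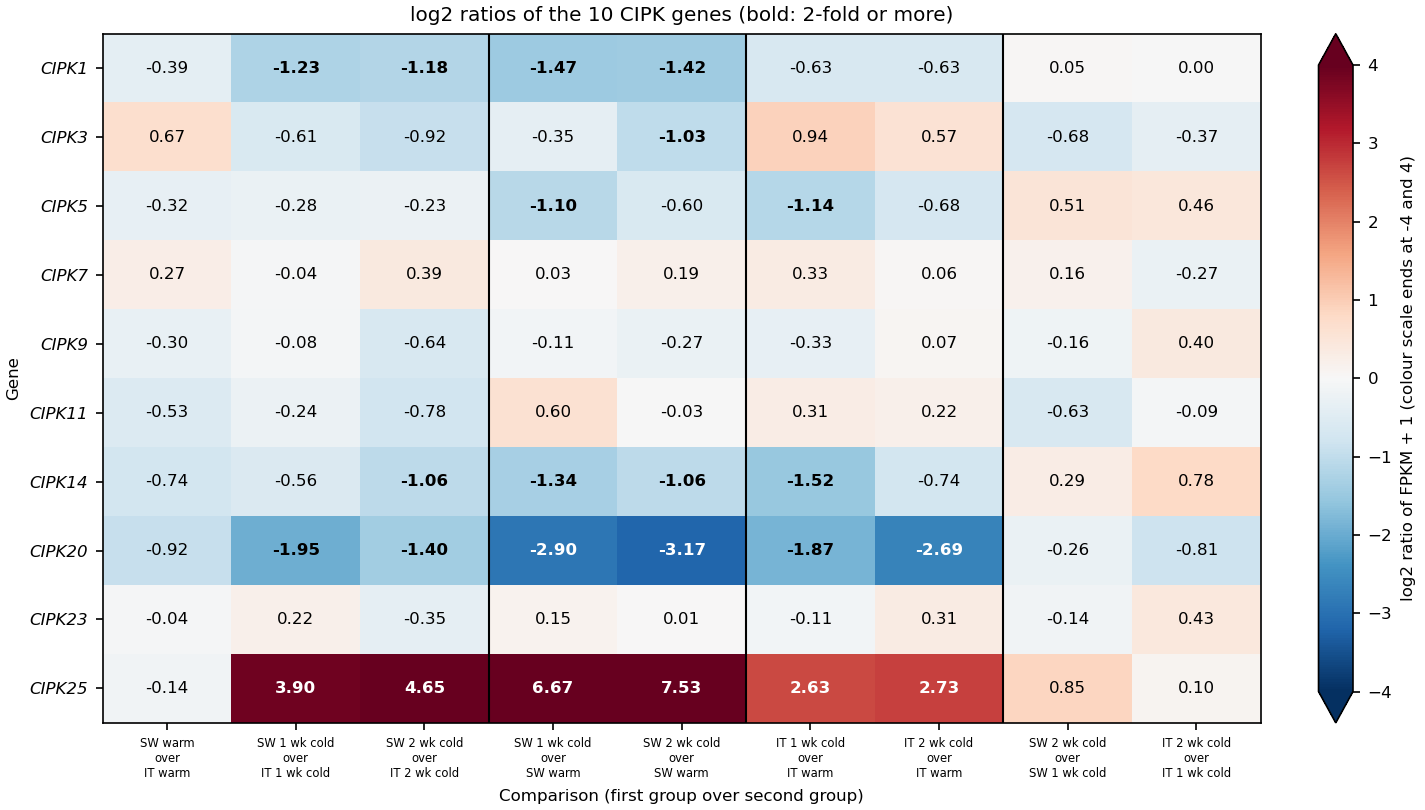
log2 ratios of FPKM + 1 for the 10 CIPK genes (rows) in the 9 comparisons between groups (columns, first group over second), with colour ending at -4 and 4 and bold for 2-fold or more. CIPK25 is the only member with bold positive cells, up to 7.53, and CIPK20, CIPK1, CIPK14, CIPK5 and CIPK3 hold the bold negative cells.

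The colour chart of ratios gives the counts for each comparison. After 1 week of cold, SW over IT was higher for 1 member, CIPK25, and lower for 2, CIPK20 and CIPK1, against 4.57% of all genes higher and 3.95% lower. After 2 weeks it was higher for 1 and lower for 3, CIPK14 being added, against 3.92% and 7.19% of all genes. Since the set was chosen for CIPK25 in these contrasts, nothing is read from its place in those counts. In the warm 0 members were past 2-fold in either direction, with 2.68% of all genes higher and 4.22% lower. The members' median ratios of SW over IT were -0.26 at 1 week, -0.71 at 2 weeks and -0.31 in the warm, against 0.01, 0.02 and 0.02 over all genes.

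Within SW plants, 1 member was higher and 4 were lower at 1 week of cold over warm, against 7.81% and 6.20% of all genes. At 2 weeks the SW counts were again 1 and 4, against 6.54% and 7.47%. The lower ones were CIPK1, CIPK14 and CIPK20 at both times, with CIPK5 at 1 week and CIPK3 at 2 weeks. Within IT plants, 1 member was higher and 3 were lower at 1 week, against 10.02% and 7.91% of all genes, the lower ones being CIPK5, CIPK14 and CIPK20. At 2 weeks 1 was higher and 1, CIPK20, was lower, against 7.03% and 6.43%. The comparisons of 1 and 2 weeks share a warm group. The second week of cold moved 0 members past 2-fold in SW plants, where 0.408% of all genes were higher and 2.88% lower. The same count was 0 in IT plants, against 1.81% and 1.48%. Between the stages CIPK25 had the highest SW ratio of the members, 0.85, with 0.10 in IT.

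The SW cold response minus the IT cold response was past 2-fold upward for 1 member and downward for 2, CIPK3 and CIPK20, at 1 week, against 4.89% and 2.43% of all genes. The CIPK20 difference was -1.03, and it was within 2-fold after quantile normalization, at -0.92. At 2 weeks it was 1 upward and 1 downward, CIPK3, against 3.07% and 4.21%. In a list of 10 genes a count of 1 is close to such background shares, and the counts for this list are a description of it. The root marker PYK10, an abundant root and hypocotyl protein, was lower in the cold in both ecotypes, and lower at 2 weeks than at 1 week. CIPK20 and CIPK3 were likewise lower at 2 weeks than at 1 week in both ecotypes. CIPK14 and CIPK5 were higher at 2 weeks than at 1 week in both, and CIPK1 was alike. The summed level of the 3 root markers was 28.5, 9.83 and 2.97 FPKM in SW and 37.3, 9.78 and 2.79 FPKM in IT plants over the 3 stages, with IRT1 at 0 to 0.0746 FPKM. PYK10 made up most of that sum, while NRT2.1 stood at 1.54, 1.04 and 1.74 FPKM in SW and 2.15, 0.716 and 1.004 FPKM in IT plants, within 2-fold. The part of PYK10 in the lower CIPK values was not tested.

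**Figure D3:**
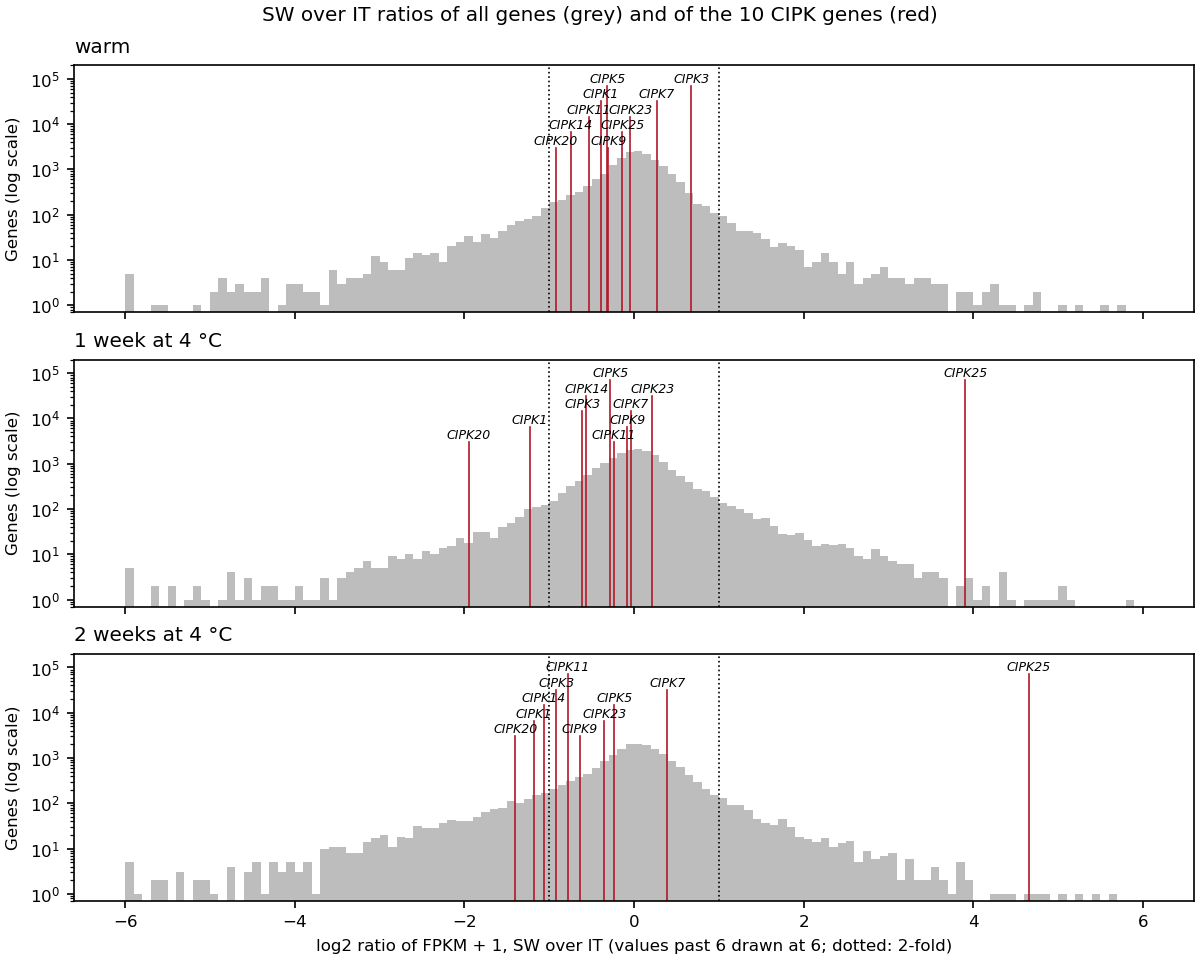
Number of genes (log scale) by log2 ratio of FPKM + 1, SW over IT, in the warm and after 1 and 2 weeks at 4 °C, with the 10 CIPK genes as labelled lines and dotted lines at 2-fold. In the warm all 10 lie between the dotted lines, and in the cold CIPK25 stands at 3.90 and 4.65, on the far right of the grey distribution.

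The histogram of all genes shows the members against the rest of the table. CIPK20 held the lowest SW over IT ratio of the 10 members at both cold stages and in the warm. The lowest level of a member was found in SW plants at 2 weeks for 4 genes, in SW plants at 1 week for 3, and in warm SW plants, warm IT plants and IT plants at 1 week for 1 each. The highest was in warm IT plants for 4 members.

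Taking the whole family of 26 CIPK genes, the sum of levels was 666, 825 and 968 FPKM in SW plants in the warm and at 1 and 2 weeks, against 761, 633 and 663 FPKM in IT plants. Without CIPK25 the sums were 665, 670.0 and 687 FPKM in SW and 761, 624 and 652 FPKM in IT. CIPK25 made up 18.8% of the SW sum at 1 week and 29.0% at 2 weeks, against 1.49% and 1.54% of the IT sum, and under 0.1% in the warm of both. CIPK20 made up 6.02%, 0.545% and 0.370% of the SW sum and 10.1%, 3.19% and 1.67% of the IT sum over the 3 stages. The gene with the largest share was CIPK6 in warm plants, CIPK25 in cold SW plants and CIPK7 in cold IT plants.

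**Figure D4:**
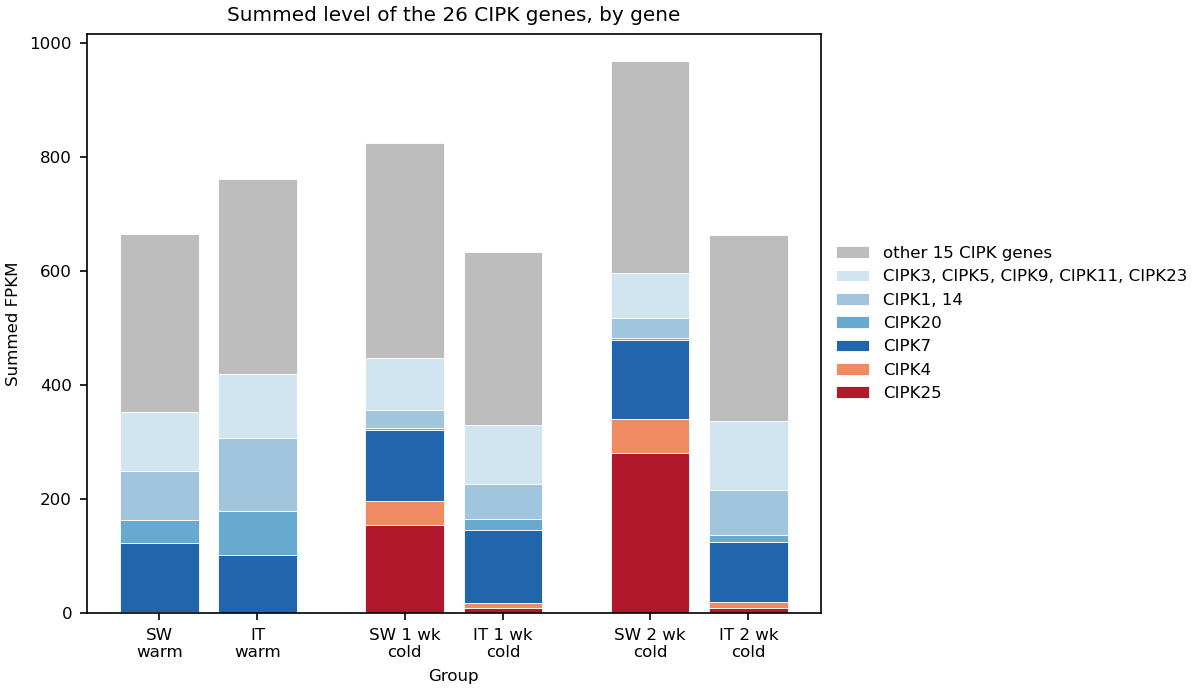
Summed FPKM of the 26 CIPK genes in each group, stacked by gene from CIPK25 at the bottom, with the SW bar left of the IT bar at each stage. The SW bars in the cold reach 825 and 968 FPKM, of which CIPK25 is 18.8% and 29.0%, and the part above CIPK25 lies between 624 and 761 FPKM in all 6 bars.

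The stacked bars also show CIPK4. Of the 16 CIPK genes outside the set, 15 reached 1 FPKM. SW over IT was higher for 1 and lower for 1 of them at 1 week, and higher for 1 and lower for 2 at 2 weeks, where 4.57% and 3.95% of all genes, then 3.92% and 7.19%, were so. Cold over warm was higher for 2 and lower for 0 of them in SW at 1 week, and higher for 3 and lower for 0 at 2 weeks, against 7.81% and 6.20%, then 6.54% and 7.47%, of all genes. In IT it was higher for 2 and lower for 1 at each time, against 10.02% and 7.91%, then 7.03% and 6.43%. CIPK4 (AT4G14580, chr4:8367663-8369312, minus strand), the nearest relative of CIPK7 with 77.6% identity over 1251 aligned coding bases, was the higher one. It had 1.25, 41.7 and 59.5 FPKM in SW plants and 0.714, 8.99 and 10.1 FPKM in IT plants. Its SW over IT ratios were 2.09 and 2.44 in the cold and 0.40 in the warm, so 2 CIPK genes that are not each other's nearest relatives had low warm and high cold SW levels. CIPK17, the nearest relative of CIPK1 at 79.4% identity, was lower in SW than in IT at all 3 stages, with 2.12, 0.840 and 0.903 FPKM in SW and 5.82, 3.61 and 4.13 FPKM in IT plants. CIPK21, which acts at the vacuole under salt and osmotic stress, was higher in the cold in both ecotypes, at 13.2, 57.1 and 50.8 FPKM in SW and 19.6, 46.8 and 43.7 FPKM in IT plants, though it shares 308 of 2112 stretches of 30 bases with another locus. CIPK6, which with CBL4 brings the channel AKT2 to the plasma membrane, stood at 157, 119 and 118 FPKM in SW and 172, 75.5 and 92.0 FPKM in IT plants.

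**Figure D5:**
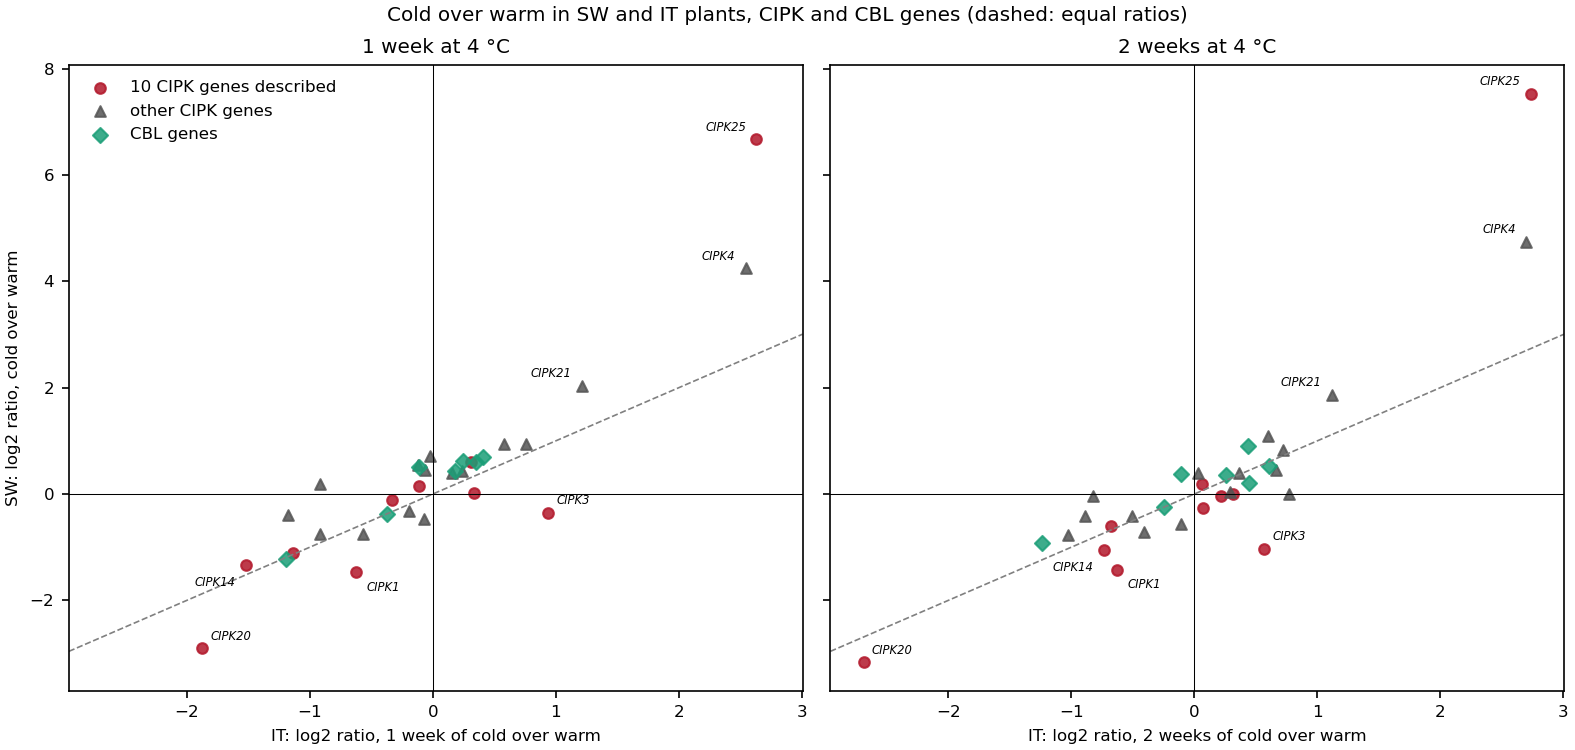
Cold over warm log2 ratios of FPKM + 1 in SW plants (vertical) against IT plants (horizontal) after 1 and 2 weeks at 4 °C, for the 10 CIPK genes (circles), other CIPK genes (triangles) and CBL genes (diamonds), with a dashed line at equal ratios. CIPK25 and CIPK4 stand above the line at both times, CIPK25 at 7.53 in SW against 2.73 in IT at 2 weeks, and CIPK3 stands below it with opposite signs.

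The scatter of cold responses places the calcium sensors beside the kinases. Of 10 CBL genes 7 reached 1 FPKM, and 0 of them were past 2-fold between the ecotypes at any stage. The shares of all genes higher and lower were 4.57% and 3.95% at 1 week, 3.92% and 7.19% at 2 weeks, and 2.68% and 4.22% in the warm. For 7 genes a count of 0 is near these shares. With a pseudocount of 0.1 the count was 1 at 1 week and 1 in the warm. CBL10, a sensor that works with CIPK24 in shoots under salt stress, was lower in the cold at 37.1, 15.3 and 19.2 FPKM in SW and 39.1, 16.6 and 16.0 FPKM in IT plants, the 2-week SW value being within 2-fold of the warm. CBL2, the vacuolar sensor, had 44.8, 69.4 and 84.4 FPKM in SW and 44.6, 53.1 and 60.8 FPKM in IT plants, within 2-fold throughout. CBL1 lay between 9.64 and 14.6 FPKM and CBL9 between 7.001 and 12.1 FPKM over the 6 groups.

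Among 19 measured targets and partners of CIPKs, 17 reached 1 FPKM, and SW over IT was higher for 1 at 1 week and for 2 at 2 weeks, with 0 and 2 lower. Of all genes, 4.57% were higher and 3.95% lower at 1 week, and 3.92% and 7.19% at 2 weeks. Counts this small in a list of 17 are a description of it. The ammonium transporter AMT1;2 was higher in cold SW plants, at 7.73 and 5.39 FPKM against 2.12 and 1.25 FPKM in cold IT plants. AMT1;1, an ammonium transporter that CIPK23 inhibits, had 20.8 FPKM in SW against 56.7 FPKM in IT plants at 2 weeks. The tonoplast sugar transporter TST2 stood at 23.0, 67.1 and 93.1 FPKM in SW and 36.5, 36.1 and 38.3 FPKM in IT plants. The nitrate transporter NRT1.1, a target of CIPK23, was lower in the cold, at 56.2, 27.2 and 23.9 FPKM in SW and 46.5, 19.7 and 29.0 FPKM in IT plants, the 2-week IT value being within 2-fold of the warm. The proton pump AHA2 stayed within 2-fold in SW plants, at 70.3, 101 and 94.3 FPKM, and was higher in the cold in IT plants, at 54.1, 123 and 128 FPKM. The channel AKT1 was between 3.34 and 6.50 FPKM in the 6 groups and within 2-fold in each comparison.

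The genes whose pattern was most like that of CIPK25 were ranked by Pearson correlation of log2(FPKM + 1) over the 6 groups among 15258 other genes that reached 5 FPKM in at least 1 group and were listed at 0 in none. This is a description over 6 values. The first was GolS3, a galactinol synthase of cold-grown plants, with r = 0.999. It had 2.16, 205 and 354 FPKM in SW and 2.30, 19.1 and 22.5 FPKM in IT plants. Next came AT2G36470, CCT2, AT4G25433 and FEI2, with r between 0.996 and 0.998. The correlation ignores the size of a change, and these genes differed in it. FEI2 had 16.3, 21.2 and 22.7 FPKM in SW and 16.5, 18.1 and 18.4 FPKM in IT plants, within 2-fold throughout. At 2 weeks AT2G36470 had 23.3 FPKM in SW against 11.9 FPKM in IT plants, within 2-fold. AT4G25433 had 30.2 FPKM in SW against 3.07 FPKM in IT plants at 2 weeks. CCT2, which makes CDP-choline for membrane lipids, had 16.1, 56.7 and 70.5 FPKM in SW and 14.3, 25.4 and 25.6 FPKM in IT plants. CIPK4 ranked 37, at r = 0.987. The cold marker RD29A ranked 121 and COR15A 599, while CBF3 and CBF2, which switch on many cold-regulated genes, ranked 1277 and 1330. CBF2 stood at 38.5 and 39.8 FPKM in cold SW plants, against 27.3 and 24.1 FPKM in cold IT plants, within 2-fold between the ecotypes. CBF3 was also within 2-fold, at 44.9 and 51.2 FPKM against 29.1 and 32.8 FPKM. RD29A and COR15A were higher in SW at both cold stages. RD29A had 1126 and 1532 FPKM in cold SW plants, against 193 and 185 FPKM in cold IT plants. COR15A had 13810 and 13319 FPKM against 5067 and 3062 FPKM.

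Of 12 genes of the low-oxygen response, a setting in which CIPK25 is known, 5 were higher in SW than in IT at 1 week, 3 at 2 weeks and 1 in the warm, with 0 lower. The shares of all genes that were higher are 4.57%, 3.92% and 2.68%. The genes were ADH1, PDC1 and SUS1 at both cold stages, with HRE2 and the haemoglobin gene HB1 at 1 week and HB1 in the warm. HRE2 was counted on levels near the floor, 1.12 FPKM in SW against 0.0373 FPKM in IT plants at 1 week. ADH1, the alcohol dehydrogenase of fermentation, had 5.78, 347 and 326 FPKM in SW and 6.35, 126 and 88.9 FPKM in IT plants. The transcription factor LBD41, a marker of low oxygen, was at 3.55, 1.78 and 1.11 FPKM in SW and 4.10, 0.944 and 2.01 FPKM in IT plants. Cold over warm was higher for 3 and lower for 1 of the 12 in SW at each time, against 7.81% and 6.20%, then 6.54% and 7.47%, of all genes. In IT the counts were 3 and 1 at 1 week and 4 and 0 at 2 weeks, against 10.02% and 7.91%, then 7.03% and 6.43%. The higher ones were the fermentation genes ADH1, PDC1 and SUS1, with HB1 in IT at 2 weeks. The lower one was ACO1 in SW at 1 week, and LBD41 in SW at 2 weeks and in IT at 1 week. The remaining genes of the list stayed within 2-fold of the warm. Of 9 measured clade A protein phosphatases, co-receptors of ABA, 7 reached 1 FPKM. HAI2 had 0.416, 5.47 and 8.27 FPKM in SW and 1.48, 3.91 and 2.25 FPKM in IT plants, higher in SW at 2 weeks as was PP2CA. HAI1 was lower there, where 3.92% of all genes were higher and 7.19% lower. At 1 week and in the warm 0 of these 7 were past 2-fold between the ecotypes. The shares of all genes higher and lower were 4.57% and 3.95% at 1 week, and 2.68% and 4.22% in the warm.

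Across the whole table the FPKM values summed to at most 1034038, in 2-week SW plants, and at least 823963, in warm IT plants, with group medians of kept genes between 10.4 and 10.9 FPKM. Of the 5 markers of green shoots, RBCS1A, LHCB1.1 and CAB3 were listed at 0 in all 6 groups and RCA in both warm groups, and RCA reached 2194 to 2682 FPKM in the cold. A value of 0 in this table is therefore read as listed at 0 and not as absence, and no member was listed at 0. The 4 flower markers summed to 0.362 FPKM in SW and 6.11 FPKM in IT plants at 2 weeks, which stands beside the 2-week comparison of the ecotypes, and its part there was not tested.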

How the data were processed

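RNA of 18 shoot libraries was sequenced by standard Illumina protocols, per the labels. Reads were processed with TopHat 1.4.1, Cufflinks 2.1.1 and Cuffdiff on the TAIR10 build, per the submitters' processing notes. For the settings, the use of strand and how 3 libraries became 1 value, the labels and notes used here give nothing. The deposited file holds the authors' FPKM values for 33557 loci and 6 groups. It has no value per library, so no SD, p-value, interval or depth per library was computed, although a test on single libraries had been planned for the case that the table held them.

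From the deposited FPKM, log2 ratios of FPKM + 1 were computed for genes of at least 1 FPKM in 1 or more groups (19639 loci). A gene listed at 0 in a compared group got no ratio, and a gene was counted at a fold of 2 or more. The ratio step was tested on simulated data. Gene models and sequences came from RefSeq TAIR10.1, in which 32813 loci (97.8%) were matched by identifier. Python 3.11.15, numpy 2.4.6, pandas 2.3.3, Biopython 1.88 and matplotlib 3.10.9 were used. The members and gene lists were chosen with earlier results of these data known. Named are all 10 members, some of the listed genes past 2-fold, the 5 genes most like CIPK25, cold markers and chromosome neighbours. Those among the listed genes, and the few within 2-fold (CBL1, CBL2, CBL9 and AKT1), were picked after their values were seen. Alternatives were other pseudocounts, filters and scalings, and protein-coding genes only.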

Additional observations from a re-analysis of the deposited data

Results flagged for a closer look

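CIPK3 moved in opposite directions in the 2 ecotypes. At 1 week of cold its log2 ratio of cold over warm was -0.35 in SW and 0.94 in IT plants, a difference of -1.28. At 2 weeks it was -1.03 in SW and 0.57 in IT plants, a difference of -1.59. Of these cold over warm ratios only the SW one at 2 weeks was past 2-fold. The difference between the ecotypes was not tested, since the table gives 1 combined value per group. The 2 differences share the warm groups, in which SW stood at 22.0 and IT at 13.4 FPKM.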

How the results depend on the processing

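Across the 10 settings tried beside the one reported, 2 of which (a pseudocount of 0.01 and scaling to the 11 reference genes that reach 1 FPKM) were chosen after seeing the data, none of the members past 2-fold changed direction. The count of members past 2-fold changed by more than 1.5 times in 2 places. It was 1 instead of 0 for IT 2 weeks over IT 1 week when the groups were scaled to 12 reference genes, where CIPK20 stood at -1.04. It was also 1 instead of 0 for SW warm over IT warm after quantile normalization, where CIPK20 stood at -1.01. Single calls that changed, beside those given with the results, were CIPK3 in IT 1 week over warm, at 1.05 with the 12 reference genes, and CIPK14 in SW over IT at 2 weeks, at -0.97 with the 11, and the CIPK20 cold response at 1 week, SW minus IT, at -0.96 with the 11. CIPK11 in SW over IT at 2 weeks also passed 2-fold with pseudocounts of 0.25, at -1.04, and 0.01, at -1.16. CIPK25 kept SW over IT ratios of 3.73 to 4.07 at 1 week and 4.48 to 4.80 at 2 weeks. Of the counts over the other gene lists, 89 changed by more than 1.5 times and 461 did not, most of the changes under smaller pseudocounts. The cause of these changes was not tested.

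With the 12 reference genes as the scale, the median ratio over the table shifted by up to 0.20 (SW warm over IT warm) and by -0.21 (SW 2 weeks over 1 week). It moved the share of higher genes among those past 2-fold to 64.8% against 53.6% for SW over IT at 1 week, and to 56.3% against 38.8% in the warm. For cold over warm it moved that share at 2 weeks to 30.9% against 46.7% in SW and to 40.9% against 52.2% in IT, and for IT 2 weeks over 1 week to 23.6% against 55.1%, where the 11 genes gave 47.4% and upper-quartile scaling 57.3%. With the 11 genes it was 35.6% for SW at 2 weeks, 35.7% for IT at 2 weeks and 45.3%, against 55.9%, for IT at 1 week, where the 12 genes moved it the other way, to 65.8%. The 12 genes differ from the 11 by HEL alone, a gene near the floor at 0.00429 to 0.0475 FPKM. Leaving out each library was not run, for want of values per library. No paired analysis was possible because the table holds 1 combined value per group and no replicate numbers. The number of libraries and the unknown depth limit the precision of low values such as those of CIPK11 and of CIPK25 in the warm.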

Other observations

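Neighbouring CIPK genes on chromosome 5 differed in their cold levels. CIPK14 lies 1092 bases from CIPK15, which had 19.9, 39.0 and 36.0 FPKM in SW plants and 28.3, 48.4 and 47.3 FPKM in IT plants in the warm and at 1 and 2 weeks. The ratios of CIPK15 in cold over warm were 0.93 and 0.82 in SW and 0.75 and 0.72 in IT, all within 2-fold and positive where those of CIPK14 were negative. CIPK20 lies 279 bases from CIPK19, which stayed between 0.144 and 1.33 FPKM in the 6 groups. On its other side is DOG1, a regulator of seed dormancy, at 0 to 0.0255 FPKM in SW plants and 0.470 to 1.51 FPKM in IT plants. The nearest protein-coding gene on one side of CIPK25, AT5G25100, had 60.9, 60.0 and 61.6 FPKM in SW and 51.6, 52.4 and 54.1 FPKM in IT plants.

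The members fall into 6 genes with 1 coding exon (CIPK5, CIPK7, CIPK11, CIPK14, CIPK20 and CIPK25) and 4 with 12 to 15 coding exons (CIPK1, CIPK3, CIPK9 and CIPK23). Genes with 1 coding exon held both ends of the range, CIPK25 and CIPK20, and also CIPK7, which stayed within 2-fold.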
